A study of Drosophila melanogaster with 3 samples.

Results

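The regions described here are the 2347 Deaf1-GFP binding summits that lay at unidirectional main gene starts, out of 8667 summits in all (27.1%, 95% exact Clopper-Pearson interval 26.1% to 28.0%). A summit is the position of highest signal in a deposited peak. It was taken as a member when the nearest annotated transcription start site (TSS) of a protein-coding gene lay within 500 bp, was the most upstream TSS of its gene, and had no protein-coding TSS of another gene on the opposite strand within 500 bp upstream. No signal value entered this choice. The data are chromatin immunoprecipitation followed by sequencing (ChIP-seq) with an antibody against GFP from Drosophila melanogaster whole embryos, 0 to 24 hours old and of mixed sex. All material came from 1 transgenic line, labelled strain Deaf1, that stably expresses Deaf1 fused to GFP at its C terminus. The design holds 3 biological replicates of this 1 group and no second condition, genotype or treatment. Embryos of all ages in this window and all their cell types were mixed, so a peak cannot be assigned to a stage or a tissue.

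Deaf1 is a transcription factor with a SAND domain, a DNA-binding fold that recognises sequences built around TTCG. Its name comes from an autoregulatory element of Deformed (Dfd), a Hox gene, which it binds, and in flies it is also known for roles in early development and in innate immunity. A unidirectional main start is the first promoter of a gene, with no opposite-strand protein-coding start of a neighbour within 500 bp upstream. Another gene can still lie close to it or around it.

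Sequences at some of the highest of these summits, and at those richest in the word TTCGG, are shown because the results below turn on that word. Each runs up to 50 bp to either side of the summit and holds no UTR base. It comes from the RefSeq copy of the dm6 assembly and is printed 5′ to 3′ on the strand of the gene, and capitals mark TTCGG or its reverse complement CCGAA. The sequences are of the reference strain, not of the embryos assayed. Among the highest summits these were robo2 (minus strand, chr2L:1420454-1420544), caps (plus, chr3L:13228562-13228662), wg (plus, chr2L:7306953-7307053), IP3K1 (plus, chr2L:9782306-9782383) and beat-IIIc (minus, chr2L:17260766-17260866). The same set held bnl (minus, chr3R:19836868-19836968), CG9932 (minus, chr2L:13060319-13060419) and KP78b (minus, chr3R:11353532-11353632). Of the 8 members with 5 words or more, the 5 with most words, ties taken by signal, were fw (minus, chrX:12003961-12004061), CG34136 (plus, chr2L:21096807-21096907), CG11000 (plus, chr3R:5802187-5802287), Scgdelta (minus, chrX:1754118-1754218) and Dop2R (minus, chrX:20062726-20062826).
robo2: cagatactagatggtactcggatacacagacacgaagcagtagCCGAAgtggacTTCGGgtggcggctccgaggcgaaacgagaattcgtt
caps: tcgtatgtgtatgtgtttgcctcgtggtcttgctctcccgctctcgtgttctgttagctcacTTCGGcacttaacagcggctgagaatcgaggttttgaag
wg: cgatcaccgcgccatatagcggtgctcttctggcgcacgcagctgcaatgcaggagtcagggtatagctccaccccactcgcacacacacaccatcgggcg
IP3K1: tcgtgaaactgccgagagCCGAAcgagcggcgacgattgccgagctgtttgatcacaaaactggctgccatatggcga
beat-IIIc: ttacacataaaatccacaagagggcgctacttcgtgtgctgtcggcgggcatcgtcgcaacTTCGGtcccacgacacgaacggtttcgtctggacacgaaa
bnl: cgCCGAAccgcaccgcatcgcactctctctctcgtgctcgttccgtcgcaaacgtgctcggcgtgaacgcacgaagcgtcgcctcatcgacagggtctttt
CG9932: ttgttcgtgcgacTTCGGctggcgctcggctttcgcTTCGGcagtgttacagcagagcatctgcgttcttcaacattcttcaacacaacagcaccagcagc
KP78b: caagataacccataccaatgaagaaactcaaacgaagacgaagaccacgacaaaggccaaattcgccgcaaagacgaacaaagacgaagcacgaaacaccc
fw: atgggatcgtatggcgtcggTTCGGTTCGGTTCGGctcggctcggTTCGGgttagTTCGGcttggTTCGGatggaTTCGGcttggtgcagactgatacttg
CG34136: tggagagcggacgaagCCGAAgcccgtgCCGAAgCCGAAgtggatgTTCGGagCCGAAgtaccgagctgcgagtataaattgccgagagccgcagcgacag
CG11000: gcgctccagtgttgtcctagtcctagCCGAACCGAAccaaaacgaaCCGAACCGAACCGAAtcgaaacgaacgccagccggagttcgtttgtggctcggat
Scgdelta: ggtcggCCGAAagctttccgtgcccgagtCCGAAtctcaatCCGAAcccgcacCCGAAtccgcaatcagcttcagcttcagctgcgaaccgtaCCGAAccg
Dop2R: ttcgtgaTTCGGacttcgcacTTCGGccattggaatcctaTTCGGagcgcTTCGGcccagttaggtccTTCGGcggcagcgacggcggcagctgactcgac

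In fw all 7 words lay on the strand of the gene, with neighbouring starts 5, 10 or 15 bp apart, and in CG11000 all 5 lay on the other strand, 5 or 15 bp apart. Dop2R held 5 words on the strand of the gene and Scgdelta 5 on the other, while CG34136 held 1 and 4. The 2 words of robo2 lay on opposite strands with starts 11 bp apart. The windows of wg and KP78b held 0 TTCGG words. They differed in the shorter core TTCG, of which the window of KP78b held 6, counted on both strands, and that of wg held 0.

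Each replicate was deposited as a list of 30000 peaks. The median signal of the list was 54.4 for replicate 1, 52.7 for replicate 2 and 41.1 for replicate 3. The signal is the peak caller's own value for each peak, without a scale shared between lists. It was used to rank peaks within a list, and a replicate's value at a summit is therefore given divided by the median of that replicate's list. The 8667 summits are the authors' reproducible set, derived by the irreproducible discovery rate (IDR), which keeps peaks whose ranks agree between replicates. For error bars on shares, each replicate list was restricted to its 8667 peaks of highest signal. Replicate 2 stood apart at divergent starts, which held 7.42% of its summits, against 6.17% in replicate 1 and 6.01% in replicate 3, so comparisons with divergent starts are also given without it. An exact two-sided sign-flip test over 3 replicate differences cannot give a p below 0.25, so p = 0.25 means only that all 3 differences had the same sign. Summits and genes are not independent replicates, and the intervals printed with shares cover counting over summits or genes alone. Sequencing depth is unknown.

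Summits at unidirectional main starts made up 53.2% (95% exact interval 51.7% to 54.7%) of the 4411 summits with a protein-coding TSS within 500 bp. Divergent main starts held 560 summits and internal alternative starts 1504. The share of all summits at unidirectional starts was 27.8%, 27.5% and 28.3% in replicates 1, 2 and 3. The 2347 summits belonged to 2064 starts, of which 1784 held 1 summit, 277 held 2 and 3 held 3 (Atf3, CG2993 and sls). Where a start held 2, they lay a median of 204 bp apart, and at 87 starts they stood on both sides of the TSS.

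Seen from the genes, 2343 of 10258 unidirectional main starts (22.8%, 95% exact interval 22.0% to 23.7%) had an IDR summit within 500 bp and are called bound. This count includes 279 starts whose summit lay nearer to another TSS. The bound share was 22.7% ± 0.0818 (SD, n = 3 replicates). It was lower than that of divergent main starts, at 30.0% in the IDR set and 29.9% ± 3.32 (SD, n = 3) over replicates, with differences of -5.40, -10.95 and -5.16 percentage points in replicates 1, 2 and 3 (exact sign-flip test, p = 0.25). A summit between 2 divergent starts can count for both. Without replicate 2 the mean difference was -5.28 percentage points. Internal starts had a higher share still, 34.8% in the IDR set and 35.1% ± 0.436 (SD, n = 3) over replicates, and the difference of -12.3 ± 0.389 percentage points (SD, n = 3) had the same sign in each replicate (exact sign-flip test, p = 0.25). Internal starts of 1 gene often lie near each other and can share a summit.

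The strongest member lay at jing, a gene of tracheal and glial cells that encodes a zinc-finger protein. Its peak, on 2R from 6500660 to 6502709, had its summit 95 bp upstream of the start. Its relative signal was 322, 418 and 296 times the list median in replicates 1, 2 and 3. At robo2, a receptor for Slit in axon guidance, the summit 41 bp upstream of the start reached 280, 344 and 261 times the median. Next came caps (capricious, a leucine-rich repeat cell surface protein) with 222, 269 and 228 times the median at a summit 80 bp upstream. In each replicate jing was above robo2 and robo2 above caps.

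The next members were close to each other. Su(z)2, a Polycomb group gene, averaged 236 ± 39.7 times the list median, and cv-2, which encodes a secreted regulator of BMP signalling, 231 ± 8.55 (SD, n = 3 each). The Wnt ligand wg had 179, 285 and 189.7 times the median in replicates 1, 2 and 3, and the pair-rule gene hry (hairy) had 218, 232 and 198.7. Replicate 2 was the highest at both, and the 2 genes' values overlap, so their order differs between replicates. The remaining 5 of the 12 highest were IP3K1 (an inositol trisphosphate kinase) with a mean of 197 ± 10.9 times the median, beat-IIIc (an immunoglobulin-domain protein of the Beaten path family) with 186 ± 28.4, bnl (the FGF ligand Branchless) with 183 ± 21.8, CG9932 with 181 ± 23.3, and KP78b with 175 ± 31.5 (SD, n = 3 each). Neighbours in this order did not differ beyond their spread. Replicate 2 gave the highest of the 3 values at 11 of the 12, the exception being IP3K1. At the other end, Moe (the actin-linking protein Moesin) had 1.79, 2.11 and 0.873 times the median and CG14966 had 1.26, 2.06 and 2.10, so the weakest members lay near the middle of the full replicate lists.

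**Figure D1:**
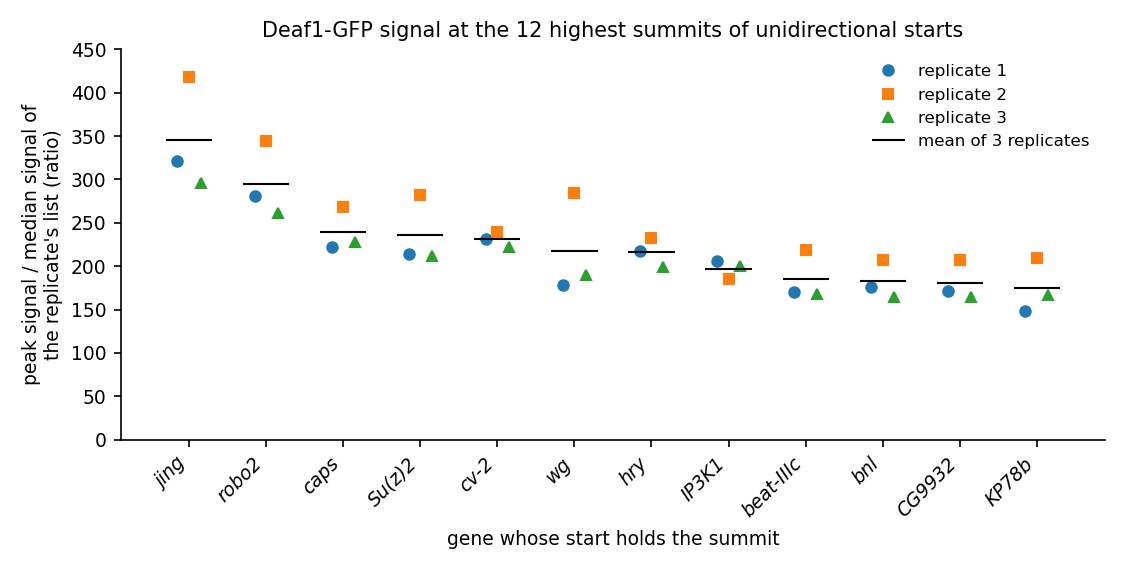
Relative signal (peak signal divided by the median signal of the replicate's list, a ratio) of the 12 members with the highest IDR signal. Symbols are the 3 replicates and the line is their mean. The values run from 418 at jing in replicate 2 to 148 at KP78b in replicate 1, and replicate 2 is the highest at 11 of the 12.

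Most of these 12 summits lay upstream of the start, and they did not share a single word. All but hry, at 37 bp downstream in its own 5′ UTR, lay on the upstream side, and 8 of the 12 held TTCGG within 50 bp. The other 4, Su(z)2, wg, hry and KP78b, held 0. The genes spanned 3495 bp (hry) to 119787 bp (jing), 6 of them over 30 kb, and 7 of the 12 had a single annotated TSS. Members were 49 of the 87 summits in the top 1 percent of the IDR set (56.3%) and 398 of the 867 in the top 10 percent (45.9%).

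Members were reproducible. Of the 2347, 2256 (96.1%) lay inside a peak of all 3 replicates, 89 in 2 and 2 in 1, which follows in part from how an IDR set is made. The median coefficient of variation of the relative signal over the 3 replicates was 14%, and it was 22.6% in the 25% of members with the lowest signal and 9.19% in the 25% with the highest. Across members the Spearman correlations of relative signal between replicates were 0.920 (replicates 1 and 2, n = 2289), 0.933 (1 and 3, n = 2286) and 0.922 (2 and 3, n = 2282), given as a description.

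Summits lay just upstream of the start. The median position was -48 bp in the IDR set (quartiles -140 and 27), and -45, -53.5 and -49 bp in replicates 1, 2 and 3. Of the members, 66.7% (95% exact interval 64.8% to 68.6%) were upstream and 54.3% lay within 100 bp of the TSS. Internal starts had a median of -46 bp in the IDR set, and the difference, members minus internal starts, was -2.83 ± 0.764 bp (SD, n = 3, the same sign in each replicate, exact sign-flip p = 0.25), which is smaller than the spread of the members' own median over replicates (SD 4.25 bp). At divergent starts a summit closer to the partner's TSS is assigned to that partner, which limits positions far upstream by construction, so no comparison is drawn.

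Position sharpened with signal. Members were divided into 4 equal classes by signal. In the lowest class the middle 50% of positions spanned 200.5 bp and 61.2% were upstream, and in the highest class it spanned 99 bp and 76.5% were upstream. Over replicates this spread was 217 ± 9.15 bp in the lowest class and 103 ± 0.629 bp in the highest (SD, n = 3 each). The median stayed between -37 bp in the lowest class and -56 bp in the highest.

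**Figure D2:**
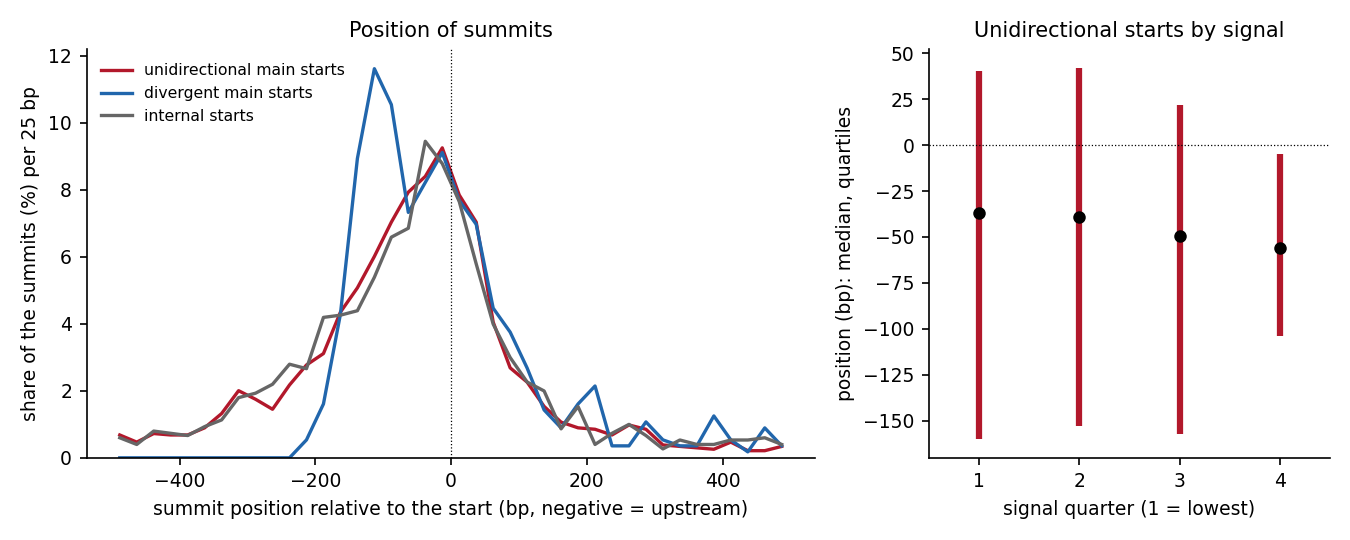
Left, position of summits relative to the start in bp (negative is upstream), as a share of the summits of each class per 25 bp, for unidirectional main starts (n = 2347), divergent main starts (n = 560) and internal starts (n = 1504). Right, median (point) and quartiles (bar) of position for members in 4 equal classes of signal; the bar is 200.5 bp long in the lowest class and 99 bp in the highest.

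By annotation, 1398 members (59.6%) lay between protein-coding genes and 689 (29.4%) in the 5′ UTR of their own gene. Another 168 lay inside another protein-coding gene outside its coding sequence, 64 in an intron and 28 in a coding exon of their own gene. Median signal was 785 between genes, 603 in own 5′ UTRs and 477 in own introns. The bound share of starts was 21.9% to 23.8% on the X and on each large autosomal arm, beside 5 of 68 (7.35%) on the small arm 4.

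Signal at unidirectional starts was higher than at divergent starts and distal sites and nearly equal to that at internal starts. The median IDR signal was 691.6 at members and 659 at internal starts, a ratio of 1.05. The replicate ratios, taken at the same summits, were 1.07, 1.05 and 1.06 (mean 1.06 ± 0.00851, SD, n = 3, exact sign-flip p = 0.25 on the log2 scale). Against the median of 498 at divergent starts the ratio was 1.39, and 1.64, 1.25 and 1.49 in replicates 1, 2 and 3 (p = 0.25, same exact test). Without replicate 2 this ratio averaged 1.56. Against 440.0 at the 2688 distal summits, over 2000 bp from each TSS, the ratio was 1.57 and the replicate mean 1.58 ± 0.0113 (SD, n = 3, exact sign-flip p = 0.25).

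The Deaf1 word TTCGG, sought on both strands with overlaps allowed, was present within 50 bp of the summit in 32.9% of members. In the windows of equal length centred 300 bp farther upstream it was present in 14.5%. The difference was 18.7, 18.0 and 16.7 percentage points in replicates 1, 2 and 3 (mean 17.8 ± 1.01, SD, n = 3, exact sign-flip p = 0.25). With the flank taken 300 bp downstream of the summit the difference was smaller, 12.7 ± 0.941 percentage points over replicates (SD, n = 3). Of all main starts, 16.6% held it in a window of equal length centred 48 bp upstream of the TSS, the members' median position. Windows at all main starts that are set beside summit windows below are placed in the same way. The shorter core TTCG was in 71.6% of member windows, beside 51% of flanks and 57.4% of windows at all main starts. GC content moves with these shares. The median GC content was 49.5% at members and 37.6% in their upstream flanks. Between windows of like GC content the difference had the same sign in each class. Under 40% GC the word was in 11.2% of member windows and 8.36% of flanks, at 40% to 50% in 34.7% and 22.6%, and at 50% or more in 42.2% and 23.2%.

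The TTCGG share at members could not be told from that at internal starts over the replicates, and it was higher than at divergent starts. The share was 32.5% at internal starts, and the difference, members minus internal starts, was 0.404, 0.140 and -0.592 percentage points in replicates 1, 2 and 3 (exact sign-flip p = 1). At divergent starts it was 15.9%, and members were higher by 15.6, 16.1 and 14.8 percentage points (p = 0.25, same exact test). Distal summits had 27.6%, with members 5.18 ± 1.66 percentage points higher over replicates (SD, n = 3, exact sign-flip p = 0.25). Median GC content was also lower at divergent summits, at 35.6% in the IDR set. Members minus divergent starts was 9.90, 14.9 and 10.9 percentage points of GC in replicates 1, 2 and 3. Windows under 40% GC, which hold 327 of the 560 divergent summits, had the word in 11.2% of members (95% exact interval 8.69% to 14.2%) and 7.34% of divergent starts (4.76% to 10.7%), whose intervals overlap. Windows of 40% to 50% GC held the word in 34.7% of members (95% exact interval 31.1% to 38.4%) and 28.8% of divergent starts (21.4% to 37.1%), which overlap too. Those of 50% or more, with 94 divergent summits, held it in 42.2% (39.3% to 45.1%) and 26.6% (18.0% to 36.7%).

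Signal was higher where the summit held more words. Members with 0 TTCGG words (n = 1576) had a median relative signal of 4.09, 4.42 and 3.99 times the list median in replicates 1, 2 and 3. Those with 1 word (n = 548) had 5.92, 5.72 and 5.56, and those with 2 (n = 158) had 17.3, 17.0 and 15.3. Medians increased at each further step in every replicate. With 3 words (n = 46) the values were 35.8, 33.4 and 29.3, and with 4 or more (n = 19) they were 52.7, 54.7 and 50.6. On the IDR scale the medians were 598, 836, 2397, 5033 and 8405 for 0, 1, 2, 3 and 4 or more words. The spread within a class was wide. The middle 50% of members with 0 words ran from 371 to 1197, and Su(z)2, wg, hry and KP78b are among them. The Spearman correlation of word number with signal across members was 0.288, beside 0.275 across internal starts and 0.0306 across divergent ones, a description over summits that share GC content with the words. In the lowest of the 4 signal classes 21.1% of members held TTCGG and in the highest 54.0%, with a median GC content of 45.5% and 53.5% in the same classes.

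In all, 8 members held 5 words or more. fw (furrowed, a selectin-like adhesion protein), with 7 words, had 74.0, 82.7 and 69.3 times the list median in replicates 1, 2 and 3. Its signal ranked 62 of 2347. CG34136, with 5 words, had 100.1, 92.8 and 93.2, and CG11000, also with 5, had 66.4, 63.3 and 59.1. Scgdelta (a sarcoglycan of the dystrophin complex) averaged 57.1 ± 5.61 and the dopamine receptor gene Dop2R 38.3 ± 5.06 (SD, n = 3 each). The other 3, with 5 words each, were lower. Sh (Shaker, a potassium channel) averaged 34.9 ± 2.87, stg (the Cdc25 phosphatase String) 31.4 ± 1.00 and CG9411 4.75 ± 0.700 times the list median (SD, n = 3 each), so CG9411 lay near the median of members with 0 words. None of the 8 reached the 12 highest, whose members held at most 2 words.

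**Figure D3:**
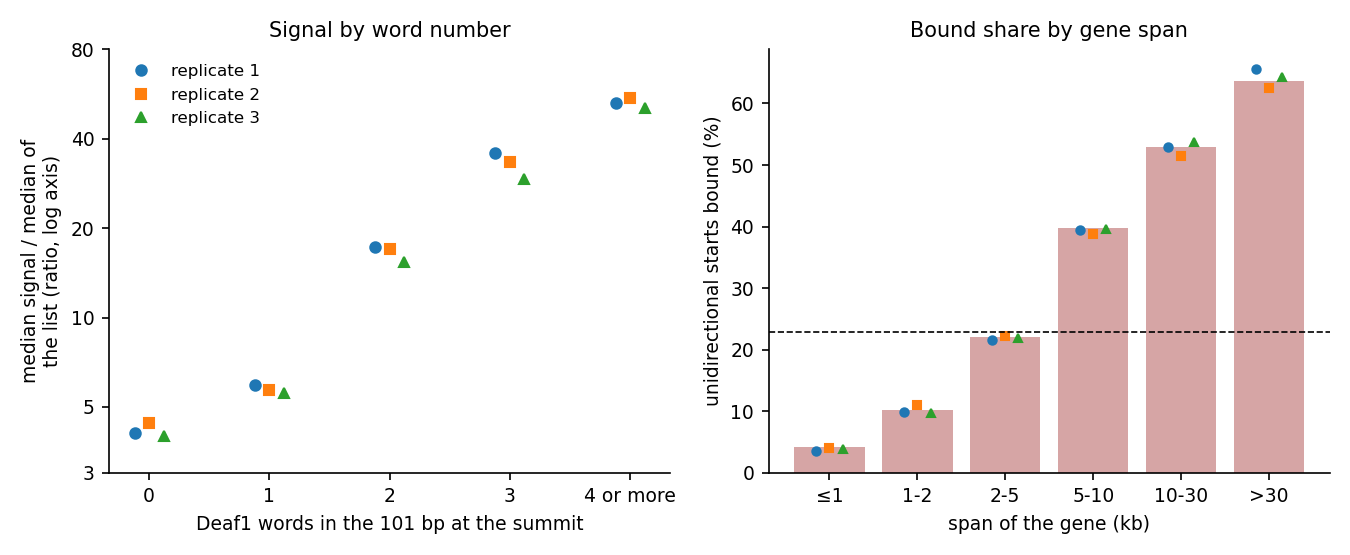
Left, median relative signal (ratio to the median of the replicate's list, log axis) of members by the number of TTCGG words within 50 bp of the summit, for each replicate; it runs from about 4 with 0 words to over 50 with 4 or more. Right, share of unidirectional main starts bound, by span of the gene in kb; bars are the IDR set, symbols the 3 replicates and the dashed line the 22.8% over all 10258 starts.

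The words lay on both strands in similar numbers, and neighbouring cores stood most often at a few short distances. Of 1088 TTCGG words in member windows, 569 (52.3%) lay on the strand of the gene. Neighbouring TTCG cores on 1 strand stood most often 5, 6 or 10 bp apart from start to start, with 121, 108 and 88 pairs in member windows, beside 21, 17 and 12 in the upstream flanks. The printed words of fw stand 5, 10 or 15 bp apart and those of CG11000 5 or 15 bp apart. A same-strand pair 4 to 16 bp apart was present in 474 members (20.2%, replicates 19.3% ± 0.229, SD, n = 3) and in 4.39% of their flanks. Internal starts had such a pair in 20.7% and divergent starts in 5.89%. Pairs on opposite strands at the same distances were in 9.50% of members and 3.45% of flanks.

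Signal was higher with a close same-strand pair of cores among members with 2 counted cores. Among members with exactly 2 TTCG cores, those with a same-strand pair 4 to 16 bp apart (n = 113) had a median relative signal of 5.87, 5.90 and 5.87 in replicates 1, 2 and 3, and those without (n = 383) had 4.81, 4.80 and 4.62. Members without TTCGG but with such a pair of TTCG cores (n = 163) had 6.60, 5.98 and 6.39, against 4.0, 4.24 and 3.83 where both were missing (n = 1413). The contrast without TTCGG does not hold core number fixed, since a pair takes 2 cores and the other members can hold fewer. The contrast at 2 cores does not hold the number of TTCGG words fixed. Cores were counted on both strands, so a single TTCGAA makes 2 cores, and members without a pair can hold just that. Such overlapping cores, 2 bp apart, numbered 130 in member windows and 108 in the upstream flanks. GC content was matched in neither contrast. KP78b, with its repeated cores, is a case without TTCGG.

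Other words marked member windows too. GAGAG, the word of the GAGA factor (Trithorax-like, a factor that opens promoter chromatin), was in 23.5% of members, 13.5% of their flanks and 13.2% of windows at all main starts; the difference from the flank was 8.55 ± 0.653 percentage points over replicates (SD, n = 3, exact sign-flip p = 0.25). It differed from TTCGG in its relation to internal starts, where 26.6% held it, and members were 4.36 ± 0.132 percentage points lower there (SD, n = 3, exact sign-flip p = 0.25). Members with TTCGG alone (n = 600) had a median relative signal of 8.35, 8.34 and 7.65 in replicates 1, 2 and 3, and those with both words (n = 171) had 7.48, 8.22 and 7.21. Those with GAGAG alone (n = 381) had 5.03, 4.88 and 4.69, and those with neither word (n = 1195) had 3.90, 4.34 and 3.79. The share with GAGAG was 21.6% in the lowest and 24.9% in the highest signal class.

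The core of the DREF element of housekeeping promoters, TATCGAT, was in 3.32% of members and 8.39% of divergent starts, a difference of -4.41 ± 0.868 percentage points over replicates (SD, n = 3, exact sign-flip p = 0.25). Of the windows at all main starts, divergent ones included, centred at the members' median position, 12.4% held it. Among members it was rarer at higher signal, at 6.64% in the lowest signal class and 1.02% in the highest. GGTCACAC, a motif 1 word of Drosophila core promoters, was in 1.24% of members, 3.39% of divergent starts and 3.16% of these windows at all main starts. CAGGTAG, the word of the early activator Zelda, was in 0.511% of both members and flanks and 0.645% of these windows at all main starts. Unidirectional starts alone differed little in the window from 250 bp before to 50 bp after the TSS. There TATCGAT was in 12.2% of bound and 13.3% of unbound starts, and GGTCACAC in 5.59% and 4.90%.

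Measured from the TSS, where bound and unbound starts are treated alike, TTCGG was in 52.0% of bound unidirectional starts and 36.8% of unbound ones, in the window from 250 bp before to 50 bp after the TSS. The difference was 15.6 ± 0.0617 percentage points over replicates (SD, n = 3, exact sign-flip p = 0.25), and 38.9% of all main starts held the word. GAGAG was in 50.7% of bound starts and 26.9% of unbound ones, a difference of 23.5 ± 1.44 percentage points. It was in 29.8% of all main starts. TATAAA went the other way, with 33.2% of bound and 48.5% of unbound starts, a difference of -14.6 ± 0.884 percentage points (SD, n = 3 each, exact sign-flip p = 0.25 each), and 45.9% of all main starts held it. Median GC content was 44.9% in bound and 37.2% in unbound windows.

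At the core promoter itself, the initiator word TCAGT within 10 bp of the TSS was in 24.3% of bound and 11.7% of unbound unidirectional starts, sought on the strand of the gene, and in 14.6% of all unidirectional starts. A TATAAA from 40 to 15 bp upstream was in 5.34% of bound and 10.3% of unbound starts, and 9.13% of all. Of the 1494 starts with this initiator 38.2% were bound, and of the 937 with the TATA box 13.3%. Both are read against 22.8% over all.

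Measured from the TSS, TTCGG and GAGAG were densest in the same stretch. In bound starts TTCGG reached 4.10 per 1000 bp from 100 to 76 bp upstream of the TSS, against 1.52 in unbound starts. GAGAG reached 9.03 against 2.16 in the same stretch. Centred on the summit instead of the TSS, TTCGG was densest at the summit itself, with 5.95 per 1000 bp within 12 bp of it. GAGAG was densest 112 to 88 bp upstream of the summit, with 7.93 per 1000 bp, beside 4.79 at the summit.

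**Figure D4:**
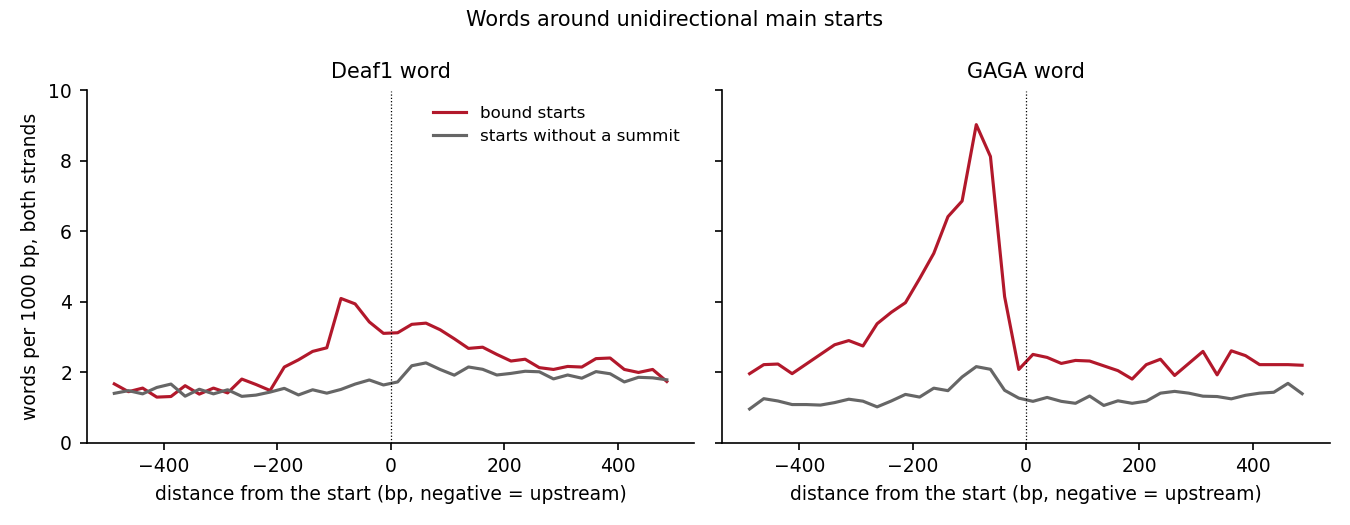
Density of TTCGG (left, Deaf1 word) and GAGAG (right, GAGA word) on both strands per 1000 bp, in steps of 25 bp by distance from the TSS, for unidirectional main starts with an IDR summit within 500 bp (n = 2343) and without (n = 7915). In bound starts both are highest from 100 to 76 bp upstream, at 4.10 and 9.03 per 1000 bp.

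The number of words in the promoter went with being bound. Of starts with 0 TTCGG words in the same window, 18.3% were bound; with 1, 25.1%; with 2, 35.0%; with 3, 50.2%; and with 4 or more, 65 of 85 (76.5%). GC content went with it as well. Of starts with a GC content under 40%, 13.1% were bound, of those at 40% to 50%, 27.6%, and of those at 50% or more, 54.6%. Within each GC class more starts were bound with more words. Under 40% GC the share was 12% with 0 words and 16.1% with 2 or more, and at 50% GC or more it was 46.5% with 0 words and 71.2% with 2 or more.

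Long genes were bound far more often than short ones. Of unidirectional starts of genes spanning up to 1 kb, 4.20% were bound (replicates 3.83% ± 0.275, SD, n = 3). The share was 10.1% from 1 to 2 kb, 22.0% from 2 to 5 kb, 39.8% from 5 to 10 kb and 52.9% from 10 to 30 kb. Over 30 kb it was 63.7% (replicates 64.1% ± 1.54, SD, n = 3). Genes with a single annotated TSS gave the same order, with 3.95% bound up to 1 kb and 73.7% over 30 kb. Median member signal per start was 494 in the shortest class and 1510 in the longest. Within a class of span, starts with more words were bound more often. Of genes spanning up to 2 kb, 6.68% were bound with 0 words and 10.3% with 2 or more, and of genes over 10 kb, 47.4% and 76.4%.

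The share varied less with the free space upstream. Starts with under 250 bp to the next gene upstream were bound in 12.6% and starts inside another gene in 17.0%. Between 250 bp and over 10 kb of free space the share was 22.4% to 31.2%. The median member signal was 527 in the tightest of these classes and 1346 with over 10 kb.

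The gene lists below were described by counts, with no test of a list, and each share is read against the 22.8% of all 10258 unidirectional starts and a median member signal per start of 781. Since span goes with being bound, a list's share is also set beside that of all unidirectional starts in its genes' span classes, averaged over the list and called the share for its span. Some genes stand in more than a single list, wg, bnl and scrt among them, so the lists are not independent. In the IDR set the 5 lists with the highest bound shares were developmental or neuronal. The order differed over replicates. Apoptosis genes, at 66.7% ± 5.25, then stood above synaptic genes, at 64.6% ± 1.80 (SD, n = 3 each). Neural and proneural factors, at 59.5% ± 2.70 (SD, n = 3), stood below apoptosis genes and below Hippo pathway genes, at 61.5% in each replicate. Axon guidance and neuronal adhesion genes had 23 of 30 unidirectional starts bound (76.7%; replicates 77.8% ± 1.92, SD, n = 3), led by robo2 and caps, beside 58.5% for their span. Tracheal, migratory and glial regulators had 16 of 22 (72.7%), led by jing and bnl, beside 45.1% for their span. Gap, pair-rule and segment polarity genes had 23 of 33 (69.7%), led by wg and hry, beside 31.2% for their span. Their strongest member held TTCGG at 5 of 23 starts, beside 707 of the 2064 starts in all (34.3%).

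Synaptic, transmitter and excitability genes had 22 of 32 starts bound (68.8%, beside 55.1% for their span), with scrt (scratch, a neuronal zinc-finger factor) at 47.1 ± 3.16 times the list median and futsch (a microtubule-associated protein of the synapse) at 41.7 ± 3.53 (SD, n = 3 each). Neural and proneural transcription factors had 24 of 37 bound (64.9%, beside 36.4% for their span), led by esg (escargot, a Snail-family repressor) at 139.9 ± 15.1 times the median and Lim1 (a LIM homeobox factor) at 133 ± 32.0 (SD, n = 3 each). The genes of these lists are long, with a median span of 39595 bp in axon guidance and 31756 bp in the synaptic list, beside 2167 bp over all starts. The neural factors have a median span of 5124 bp and the segmentation genes of 3495 bp.

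In the Notch, receptor tyrosine kinase, Wnt/Hedgehog/BMP, Hippo, apoptosis and Toll/Imd lists 50% to 63.6% of starts were bound. The Notch pathway had 12 of 21 (57.1%, beside 27.0% for their span), led by E(spl)m3-HLH (an Enhancer of split repressor) at 61.9 ± 0.894 times the list median and numb (an inhibitor of Notch) at 23.0 ± 1.35 (SD, n = 3 each). Receptor tyrosine kinase signalling had 14 of 26 (53.8%, beside 50.7% for their span), with the FGF ligands bnl and pyr highest. Wnt, Hedgehog and BMP signalling had 17 of 31 (54.8%, beside 46.0% for their span), with cv-2 and wg highest. The Hippo pathway had 8 of 13 (61.5%, beside 45% for their span), led by kibra (an upstream activator of the pathway) at 15.3 ± 0.925 and app (approximated, a palmitoyltransferase) at 5.93 ± 2.01 (SD, n = 3 each). Apoptosis genes had 7 of 11 (63.6%, beside 25.5% for their span), led by the death genes rpr at 6.22 ± 0.415 and hid at 4.84 ± 0.612 (SD, n = 3 each), and their strongest members held TTCGG at 0 of 6 starts, beside 34.3% of all starts with a member. The Toll and Imd pathway had 11 of 22, beside 27.6% for their span, with PGRP-LF (a receptor that restrains the Imd pathway) at 18.8 ± 1.36 and the receptor Tl (Toll) at 11.5 ± 1.99 (SD, n = 3 each).

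The antimicrobial peptide genes, the effectors of that pathway, were bound in 1 of 28 (3.57%). The single member was AttA at 2.14 ± 0.185 times the list median (SD, n = 3), with its summit at position -443 bp. Mtk and Drs, a pair of peptide genes that earlier work links to Deaf1, both had unidirectional starts with no summit within 500 bp, the nearest lying 7750 bp upstream and 8518 bp downstream. The peptide genes are short, with a median span of 429.5 bp, and the share for their span was 4.41%.

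Lists of Polycomb and Trithorax group genes (9 of 17, led by Su(z)2 and Psc), muscle genes (13 of 27) and genes of the Antennapedia and Bithorax complexes (5 of 12) were also above the share of all starts. The shares for their span were 40.6%, 43.5% and 43.2%, so the muscle and homeotic complex genes lay near theirs. Muscle genes held TTCGG at 8 of 13 starts with a member (61.5%, beside 34.3% over all), led by Zasp52 (a Z-disc protein) at 52.9 ± 4.29 times the list median and Prm (paramyosin) at 50.4 ± 4.19 (SD, n = 3 each). Dfd, the gene whose autoregulatory region gave Deaf1 its name, was bound 132 bp upstream of its start at 10.9 ± 0.480 times the median (SD, n = 3), with 1 TTCGG word. pb (proboscipedia) and lab (labial), Hox genes of the same complex, had 16.5 ± 2.49 and 15.6 ± 2.13 (SD, n = 3 each). The ecdysone cascade had 7 of 19 bound (36.8%), below the 50.9% for its span, led by Hr38, a nuclear receptor, and shd, an enzyme of ecdysone synthesis. Autophagy and insulin/TOR genes had 7 of 19 (36.8%, beside 31.5% for their span), led by foxo (the forkhead factor of insulin signalling) at 50.5 ± 5.35 and Thor (the 4E-BP translation repressor) at 15.9 ± 2.31 (SD, n = 3 each). Cell cycle control genes had 7 of 23 (30.4%, beside 29.1% for their span), with stg at 31.4 ± 1.00 times the median and 5 TTCGG words at its summit.

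Apart from translational repressors and RNA localisation genes, the lists in this paragraph were bound below the share of all starts. RNA polymerase II and its general factors had 1 of 21 bound, mitochondrial ribosomal proteins 1 of 20 (5%, beside 10.8% for their span), proteasome subunits 2 of 28 and oxidative phosphorylation 7 of 55 (12.7%). Insulator and architectural proteins had 0 of 12 in the IDR set and 2.78% ± 4.81 over replicates (SD, n = 3), beside 26.2% for their span. The RNA polymerase list stood below its 16.7% for span too, and the proteasome (10.8%) and oxidative phosphorylation (13.3%) near theirs. Cuticle proteins of the Rebers-Riddiford family had 5 of 93 (5.38%, beside 10.7% for their span), and odorant, gustatory and ionotropic receptors 1 of 164 (0.610%, beside 14.3% for their span), at Or67a. Translational repressors and RNA localisation genes had 4 of 14 (28.6%), above the share of all starts and below the 50.3% for their span.

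Cytoplasmic ribosomal proteins, chaperones and the list of actins, tubulins and common metabolic enzymes were bound above the share of all starts. Cytoplasmic ribosomal proteins had 22 of 56 bound (39.3%; replicates 35.1% ± 4.12, SD, n = 3), beside 11.3% for their span, and their strongest members held TTCGG at 0 of 18 starts, beside 34.3% over all. Their median member signal was 367, below the 781 of all starts, with RpL23A at 4.49 ± 0.554 and RpL22 at 3.88 ± 0.493 times the list median (SD, n = 3 each). Chaperones had 7 of 15 bound (46.7%, beside 19.6% for their span) and held TTCGG in 0 of 6 starts, with a median member signal of 1019, led by DnaJ-1 at 16.7 ± 0.773 and the small heat shock protein gene Hsp27 at 12.5 ± 1.1 (SD, n = 3 each). Actins, tubulins and common metabolic enzymes had 10 of 21 bound (47.6%, beside 22.6% for their span), led by betaTub60D at 44.8 ± 7.08 and Gapdh2 at 22.8 ± 1.80 (SD, n = 3 each).

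**Figure D5:**
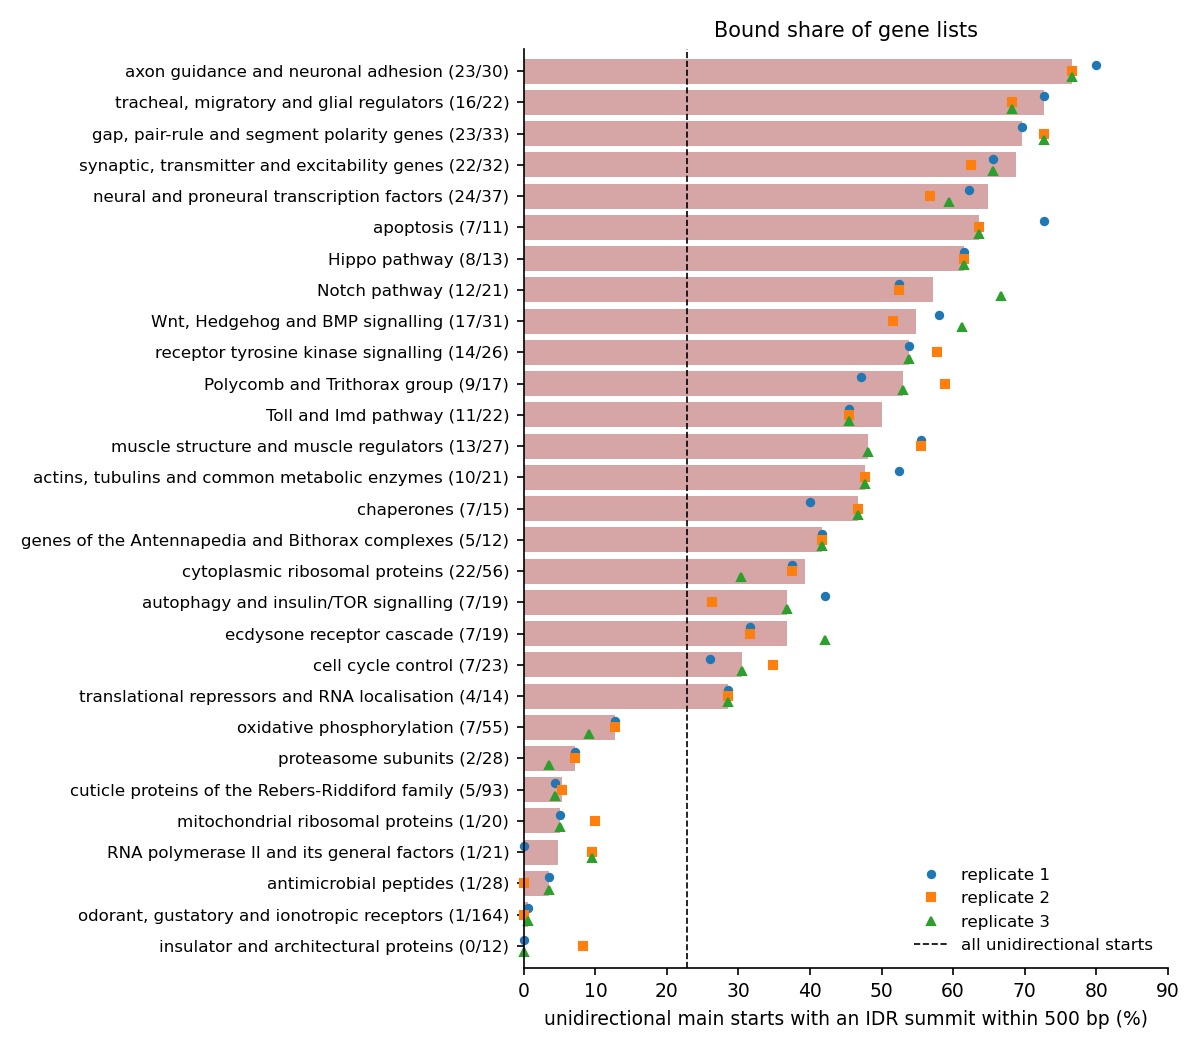
Share of unidirectional main starts bound in each gene list, in percent; the label gives bound over all unidirectional starts of the list, bars are the IDR set, symbols the 3 replicates and the dashed line the 22.8% over all such starts. Axon guidance stands at the top with 76.7% and insulator proteins at the bottom with 0 of 12.

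Of the other genes earlier work links to Deaf1, Deaf1 itself has a divergent start, bound 171 bp upstream, and Atg8a has a divergent start with the nearest summit 921 bp downstream. Pi3K59F has a unidirectional start, with its nearest summit 4301 bp downstream.

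The limits of the rule cut through a continuous range. Just inside 500 bp lay CG7255, at 500 bp downstream with an IDR signal of 1455, and CG3961, at 499 bp upstream with 522. Just outside lay CG11191, at 503 bp upstream with 687, and CG15172, at 504 bp upstream with 729. On the distance to an opposite TSS, CG5167 (504 bp) and fipi (505 bp) were members, and vsg (497 bp) was assigned to the divergent starts.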

How the data were processed

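Deaf1-GFP ChIP-seq of 3 biological replicates was analysed from the deposited peak lists, on dm6 per the labels. Per the file headers, the authors called peaks on each replicate and on pooled alignments, each against 1 control alignment, and derived an IDR set from these lists. The deposited signal is the peak caller's value for each peak. The deposited −log10 q-values share a ceiling and were not used. Aligner, peak caller and IDR threshold, each not given in the sources used here, and the unknown depth could change which weak peaks were kept.

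Genes came from Ensembl release 115 and sequence from RefSeq, on the same assembly. Each summit was assigned to the nearest of 19607 protein-coding TSSs, with ties going to main starts. For a member's signal in a replicate, the summit closest to it was used, out of the replicate's peaks that cover it. There is 1 group, so differences between classes of summits were tested over the 3 replicates by exact two-sided sign-flip tests. Words were counted on both strands, except the initiator and the TATA box, sought on the strand of the gene. The assignment was tested on simulated summits. In the gene lists 668 names matched by symbol, 21 by an older symbol and 14 did not match.

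Named genes are those of the 12 highest members, up to 2 per list by signal, a candidate list (Dfd, Deaf1, Drs, Mtk, Pi3K59F, Atg8a), the 5 members with most words (ties by signal), the 2 lowest and those beside the 500 bp limit. Atf3, CG2993, sls, Sh and CG9411, and the genes beside the limit on opposite TSSs, were chosen after their values were seen. The members, lists and tests were chosen with earlier results of these data known. The spacing of cores, the classes by GC content, gene span and signal, and the core promoter words were added after the data were seen. Alternatives changed the TSS window, the definition of a divergent start, the number of peaks, the sequence windows and the replicates. Python 3.11.15 with numpy 2.4.6, pandas 2.3.3 and scipy 1.17.1 was used.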

Additional observations from a re-analysis of the deposited data

How the results depend on the processing

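The signal ratios to internal and divergent starts, the TTCGG differences from the flank and from divergent starts, and that between bound and unbound starts kept their sign under every alternative run. The TTCGG difference between members and internal starts did not: 0.337 percentage points in the IDR set, it was -0.305 with a TSS window of 250 bp and -0.732 with sequence windows of 100 bp on each side, and between -0.226 and 0.272 with 1 replicate left out. The cause was not tested, and its sign should not be read. With a TSS window of 250 bp the members were 23.0% of all summits, 19.5% of starts were bound, the median position was -39 bp and the median GC content 50.5%. With opposite TSSs counted to 1000 bp, members were 24.1% of summits and 22.5% of starts were bound, and with opposite TSSs of any biotype members were 26.3%. In the 4333 IDR peaks of highest signal, members were 33.5%, 14.9% of starts were bound, since fewer peaks were used, and median GC content was 51.5%. With 1 replicate left out, the signal ratio to divergent starts ranged from 1.37 to 1.56 and the median position from -51.25 to -47 bp. Gene list shares were described by replicate and not run under these alternatives. No paired analysis was possible because replicate numbers could pair samples only across groups and the design has 1; the sign-flip tests compare classes of summits within each replicate. Depth is unknown, 3 replicates cannot reach an exact p under 0.25, mixed embryos hide stage and tissue, and GC content and gene span move with most of the shares above.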
